A study of Homo sapiens with 23 samples.

Results

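Clone 13 is a drug-resistant descendant of the melanoma cell line WM989 A6-G3, and its libraries were taken by their label: 3 of the 23 libraries of the series. It grew as a colony under 250 nM dabrafenib, an inhibitor of mutant BRAF, with 2.5 nM trametinib, an inhibitor of MEK, and was kept in both drugs. Clones 10, 11 and 12 were selected and kept in the same drugs at the same doses. Clones 7, 8 and 9 were selected and kept in 1 µM vemurafenib, another BRAF inhibitor. Untreated WM989 A6-G3 cells, the common parent, had no drug in the medium. Every group had 3 libraries except clone 11, which had 2. All groups carried the label WT for genotype. The parent line went through single-cell bottlenecks, and each resistant line is 1 expanded colony, so clone 13 stands for 1 outgrowth event and not for resistance to these drugs in general. Because untreated cells lacked drug, resistance and the presence of drug cannot be told apart in any comparison with them. Nothing in the labels says how the libraries called biological replicates were separated, and the p-values therefore measure the spread between these libraries, which may be technical.

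Mutant BRAF drives melanoma cells through the MEK and ERK kinases, and the pigment-cell program run by SOX10 and MITF is the usual identity of such cells. Melanoma cells that survive BRAF and MEK inhibition often lose this program and take on a mesenchymal expression pattern with collagens, proteases, cytokines and receptor tyrosine kinases. Resistant colonies from 1 parent need not reach the same state, and the series compares such colonies. The question followed here is what clone 13 expressed that the other 6 clones did not, or expressed less.

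Levels are scaled TPM, a measure of transcript abundance that is already per transcript length and was made comparable between libraries. Differences are on the log2(scaled TPM + 1) scale and come from limma fitted to all 23 libraries and 15657 genes. A gene was called where the Benjamini-Hochberg adjusted p was under 0.05 and the log2 difference at least 1 in size. The depth of the libraries is unknown. Between 21594 and 24039 genes had a value above 0 in the clone 13 libraries. Replicate 1 of clone 10 had the fewest of all libraries, 14415, and correlated with its nearest library at Pearson r = 0.944. That library was kept in the fit and in every mean that includes clone 10. Mitochondrially encoded transcripts made up 11.4% to 13.5% of TPM in clone 13 and 20.6% to 21.2% in untreated cells. The label of clone 13 as a resistant melanoma clone was checked with markers. PMEL, the scaffold protein of pigment granules, had 179, 46.6 and 31.2 TPM in clone 13, against 9744 to 10045 TPM in untreated libraries, and 18 of 21 tested melanocyte genes were called lower than in untreated cells, where 8.34% of all tested genes were called lower. Markers of other cell types were read as whole lists. Of 3 tested endothelial markers 2 were called higher than in untreated cells, where 12.3% of all tested genes were. The 7 markers summed to 3.28 to 5.52 TPM in clone 13 and 1.57 to 1.75 TPM in untreated cells. PECAM1 had 2.97, 1.36 and 1.21 TPM in clone 13 while CDH5 was at 0.0309 TPM or less. Of 4 tested immune markers 2 were called higher and 1 lower (12.3% and 8.34% of all genes). The 9 markers summed to 402 to 641 TPM in clone 13 and 169 to 170 TPM in untreated cells. CD68, a lysosomal protein of macrophages, was called higher (1.58, adjusted p = 1.39e-06), PTPRC had 0.800, 0.992 and 0.968 TPM in clone 13, and the T-cell gene CD3E was at 0.0175 TPM or less. The 8 keratinocyte and epithelial markers summed to 84.9 to 122 TPM in clone 13 and 66.8 to 77.8 TPM in untreated cells. Of these, 0 of 4 tested genes were called (20.6% of all genes either way), and KRT5 and KRT14 were at 0.0221 TPM or less. None of these 3 lists had a gene called against the mean of the other clones, where 1.61% of all genes were called. The part of such cells in the results was not tested. Replicate 3 of clone 13 stood apart in immediate early genes. FOS had 430, 381 and 53.1 TPM in replicates 1, 2 and 3, and FOSB had 146, 143 and 8.28 TPM. Across genes, replicate 3 correlated with replicate 3 of clone 12 at Pearson r = 0.984 and with the nearest clone 13 library at r = 0.983. A library pools many cells, so more cells that express a gene and more RNA per cell cannot be told apart.

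Against untreated cells, 1926 genes were called higher in clone 13 (12.3% of those tested) and 1306 lower (8.34%). With the values as deposited, without scaling, the split was 2325 higher and 996 lower. Against the mean of the other 6 clones, 190 genes were called higher (1.21%) and 62 lower (0.396%). Of these, 163 (1.04%) were higher than both untreated cells and the mean of the other clones, and 13 (0.083%) were lower than both. Only 24 genes (0.153%) were higher in clone 13 than in each of the 6 other clones taken singly. The corresponding number of lower genes was 0, and it was 1 without replicate 3 of clone 13. At an unadjusted limma p under 0.05, with no fold minimum, 110 genes were higher and 45 lower than in each clone. Of the 24 genes, 15 stayed in the set without replicate 2 of clone 13, 19 without replicate 1 and 23 without replicate 3. Those that left it without replicate 2 included ENPP2, C3, SERPINB7, SLCO2B1, SP140 and PRKG2. Without replicate 1 of clone 10, 23 of the 24 genes stayed.

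Among the genes higher in clone 13 than in every other clone were several that encode secreted proteins. They included SOST (sclerostin), an extracellular inhibitor of WNT signaling best known from bone cells; NTF3 (neurotrophin-3), a ligand of the receptor TRKC; RARRES2 (chemerin), a chemoattractant; ENPP2 (autotaxin), the enzyme that makes lysophosphatidic acid; and OLFML3, a secreted olfactomedin-domain protein. Each was low or near 0 in untreated cells.

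SOST had 69.5, 49.6 and 21.6 TPM in clone 13, between 0.00673 and 9.87 TPM in the 17 libraries of the other clones, and 0.00746, 0.0201 and 0 TPM in untreated cells. All clone 13 libraries lay above every other library, and clones 9, 10 and 12 held most of the remaining signal. The log2 difference from the mean of the other clones was 4.03 (SE 0.34, adjusted p = 1.91e-07), the largest among the called genes named here. NTF3 had 37.7, 29.0 and 23.7 TPM in clone 13, at most 8.38 TPM in any other clone library, and 0, 0.0145 and 0 TPM in untreated cells. Its clone mean came next highest in clone 12, at 7.46 TPM, and was 0.0217 TPM in clone 10. The difference from the other clones was 3.27 (SE 0.15, adjusted p = 6.25e-11). RARRES2 had 62.4, 36.1 and 35.1 TPM in clone 13, between 0.756 and 15.4 TPM in the other clones, and 0.0589, 0.0386 and 0.0373 TPM in untreated cells. RARRES2 was called higher than in untreated cells in all 6 other clones as well, and clone 13 exceeded their mean by 3.07 (SE 0.25, adjusted p = 1.22e-07).

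ENPP2 stood at a higher level: 163, 241 and 135 TPM in clone 13, between 7.12 and 82.9 TPM in the other clones, and 3.36, 3.95 and 4.09 TPM in untreated cells. The groups did not overlap, and the difference from the other clones was 2.28 (SE 0.24, adjusted p = 4.08e-06). OLFML3 had 148, 177 and 130.2 TPM in clone 13, between 19.2 and 69.4 TPM in the other clones, and 0.745, 0.573 and 0.755 TPM in untreated cells. It rose against untreated cells in all 7 clones and furthest in clone 13, by 2.04 over the mean of the others (SE 0.18, adjusted p = 4.28e-07). C3, the central complement protein, had 29.6, 23.5 and 12.6 TPM in clone 13, between 2.97 and 11.0 TPM in the other clones, and 3.22, 1.73 and 2.96 TPM in untreated cells. Its lowest clone 13 library, replicate 3, lay close above the highest library of the others, and the difference was 1.72 (SE 0.23, adjusted p = 6.19e-05). C3 was higher than in each clone in 22 of 29 alternative settings. CCL8, a chemokine for monocytes, was listed at 0 in all 3 untreated libraries and had 5.82, 8.00 and 2.13 TPM in clone 13 and at most 1.82 TPM in the other clones. The difference from the other clones was 2.00 (SE 0.23, adjusted p = 9.24e-06), and no other clone had a call for CCL8 against untreated cells.

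**Figure D1:**
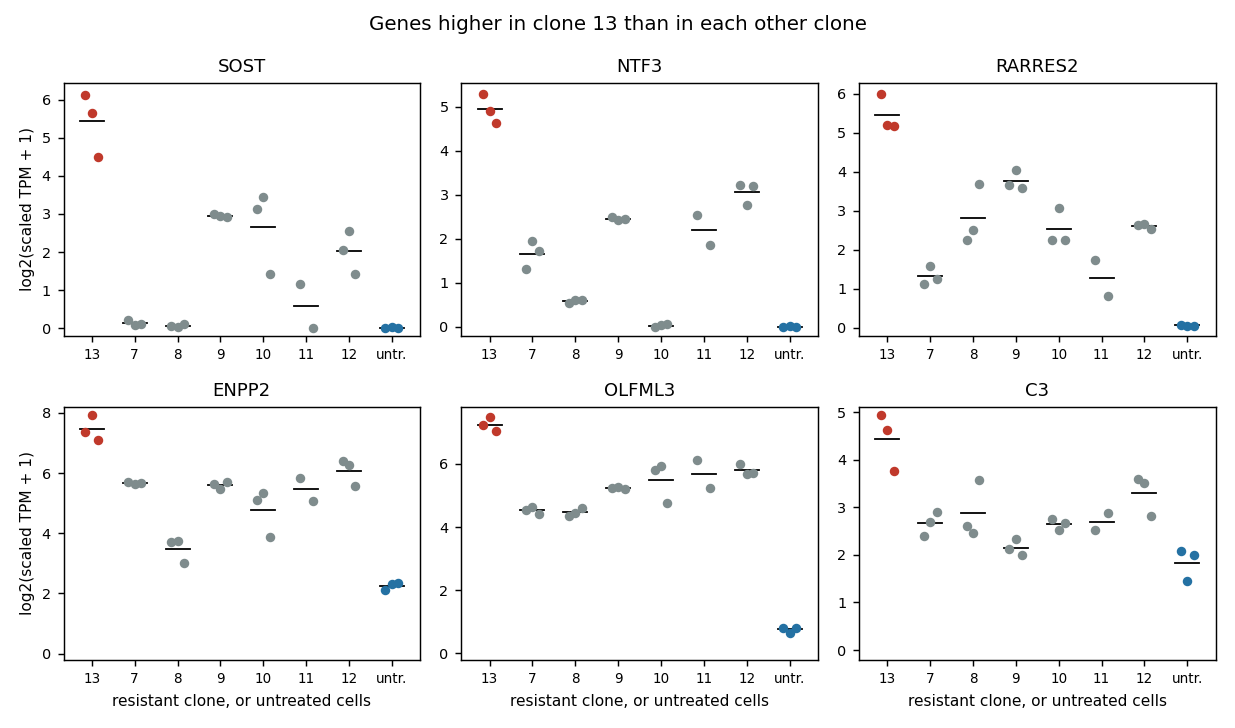
Levels of 6 genes in every library as log2(scaled TPM + 1), with clone 13 at the left (red), clones 7 to 12 (grey) and untreated cells at the right (blue). Points are libraries and bars are group means. In each panel all 3 clone 13 libraries lie above every library of the other groups, with the smallest gap for C3.

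The remaining genes of that set that the naming rule covers were surface, transport, cytoskeletal and conjugation genes. NFASC (neurofascin), an adhesion molecule of axons, averaged 33.6 ± 8.31 TPM in clone 13 (SD, n = 3), against clone means of 5.03 to 13.5 TPM and 0.259 ± 0.0102 TPM in untreated cells (SD, n = 3). CDH9, a cadherin, had 5.08, 6.11 and 4.83 TPM in clone 13, at most 0.990 TPM in any other clone library, and 0.128, 0.262 and 0.332 TPM in untreated cells. Its difference from the other clones was 2.10 (SE 0.17, adjusted p = 9.77e-08), and no other clone was called against untreated cells. SERPINB7, a serine protease inhibitor, averaged 6.66 ± 2.88 TPM in clone 13, at most 2.60 TPM in any other clone library, and 0.226 ± 0.131 TPM in untreated cells (SD, n = 3 each for clone 13 and untreated cells). SYNPO2L, an actin-associated protein, had 15.6, 7.67 and 4.60 TPM in clone 13, at most 3.02 TPM in other clone libraries, and 0.717, 0.501 and 0.504 TPM in untreated cells.

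SLCO2B1, an uptake transporter for organic anions and many drugs, had 6.65, 13.7 and 4.63 TPM in clone 13, between 0.0870 and 4.13 TPM in the other clones, and 1.92, 1.99 and 4.10 TPM in untreated cells. Clones 7, 8 and 11 were called lower than untreated cells for SLCO2B1, so clone 13 differed from them in direction. The difference from the other clones was 2.17 (SE 0.29, adjusted p = 6.54e-05) and from untreated cells 1.28 (SE 0.38, adjusted p = 0.0095). The call against untreated cells was lost without replicate 2 of clone 13, at 0.89 (adjusted p = 0.072), and with a pseudocount of 0.1 (adjusted p = 0.061). SLCO2B1 was higher than in each of the 6 clones in 10 of 29 alternative settings only, whereas the difference from their mean was called in all. CT45A5 and CT45A6 are cancer-testis antigen genes of the X chromosome whose copies are nearly identical, so the division of reads between them is uncertain. CT45A5 had 24.1, 15.5 and 12.2 TPM in clone 13, at most 2.22 TPM in other clone libraries, and 0.135, 0.139 and 0.225 TPM in untreated cells. CT45A6 had 11.5, 9.35 and 1.52 TPM in clone 13, at most 0.370 TPM in other clones, and 0.0893, 0 and 0 TPM in untreated cells. Of 11 tested members of the cancer-testis list, which holds neither gene, 0 were called against the mean of the other clones (1.61% of all genes). Taken singly, 5 were lower than in clone 10 (1.43%), 2 lower than in clone 11 (2.78%) and 2 lower than in clone 12 (0.581%). Against clone 7, 2 were higher and 3 lower (2.78% and 1.77%). There were 2 higher than in clone 8 (4.29%) and 3 higher than in clone 9 (1.69%).

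Counted by calls against untreated cells, 23 genes (0.147%) were called higher in clone 13 alone among the 7 clones while also exceeding the mean of the other 6. Besides CDH9, CCL8 and SLCO2B1 they included SP140, a nuclear body protein, CGREF1, a secreted calcium-binding protein that affects growth, and HKDC1, a hexokinase. CGREF1 had 4.80, 4.54 and 4.35 TPM in clone 13, at most 1.86 TPM in other clone libraries, and 1.06, 1.15 and 0.937 TPM in untreated cells. The clone 13 libraries were tightly grouped above all others, by 1.74 over the other clones (SE 0.10, adjusted p = 1.51e-09). SP140 had 5.65, 7.21 and 4.92 TPM in clone 13, at most 2.69 TPM in other clones, and 0.779, 0.866 and 0.533 TPM in untreated cells. HKDC1 had 1.84, 7.95 and 3.18 TPM in clone 13, at most 2.44 TPM in other clones, and 0.451, 0.669 and 0.812 TPM in untreated cells. Its difference from the other clones was 1.30 (SE 0.26, adjusted p = 0.00331) and lost its call without replicate 2, at 0.84 (adjusted p = 0.075).

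Clone 13 also had the highest levels of particular matrix genes. Collagens are built from chains that are trimmed, cross-linked and later cut outside the cell. COL1A2 is the second chain of type I collagen, and COL6A3 is the third chain of type VI collagen. Of 22 tested collagen chains, 16 were called higher than in untreated cells and 0 lower (median log2 difference 4.30, against -0.0039 over all genes tested, of which 12.3% were called higher). Against the other clones, COL1A2 and COL6A3 were called higher and COL5A3 lower, where 1.21% and 0.396% of all genes were. The median over the chains was -0.14, against 0.01 over all genes.

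COL1A2 had 259, 315 and 525 TPM in clone 13, between 1.23 and 250.3 TPM in the other clones, and 0.275, 0.395 and 0.246 TPM in untreated cells. The clone 13 libraries lay above all others, yet the other clones differed widely among themselves, with 206 TPM as the mean of clone 11 and 3.18 TPM as that of clone 10. The difference from their mean was 3.92 (SE 0.35, adjusted p = 3.5e-07), with calls against every clone but clone 11. COL6A3 had 174, 385 and 431 TPM in clone 13, between 4.46 and 162 TPM in the other clones, and 0.424, 0.475 and 0.360 TPM in untreated cells. The groups did not overlap, and the difference was 3.34 (SE 0.27, adjusted p = 1.05e-07), with calls against every clone but clone 9. The partner chains did not follow. COL1A1 averaged 2067 ± 541 TPM in clone 13, clone means of 2013 to 6113 TPM in the others, and 6.62 ± 1.92 TPM in untreated cells (SD, n = 3 each for clone 13 and untreated cells). Its difference from the other clones was -0.67 (SE 0.19, adjusted p = 0.0288), under the fold minimum. COL6A1 and COL6A2 differed from the mean of the other clones by -0.16 (adjusted p = 0.341) and -0.24 (adjusted p = 0.168). COL3A1 and COL5A1, chains of types III and V collagen, had differences of -0.13 (adjusted p = 0.844) and -0.53 (adjusted p = 0.0587). COL5A3 averaged 7.59 ± 2.17 TPM in clone 13, clone means of 2.43 to 114 TPM in the others, and 4.05 ± 0.124 TPM in untreated cells (SD, n = 3 each for clone 13 and untreated cells). That call, at -1.20 (adjusted p = 0.000217), was lost when clone 8 or clone 11 was left out of the mean, at -0.77 and -0.69.

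Of 17 tested genes of collagen processing and cross-linking, 12 were called higher than in untreated cells (12.3% of all genes), and 3 were called higher than in the other clones (1.21% of all genes): PCOLCE and PCOLCE2, enhancers of procollagen C-terminal cleavage, and LOXL1, a lysyl oxidase that cross-links elastin and collagen. PCOLCE had 686, 789 and 989.8 TPM in clone 13, between 111 and 1043 TPM in the other clones, and 27.0, 27.8 and 23.9 TPM in untreated cells. Only the 3 libraries of clone 9 reached the clone 13 range, and the difference from the other clones was 1.68 (SE 0.15, adjusted p = 3.49e-07). LOXL1 had 9.30, 8.45 and 7.36 TPM in clone 13, at most 5.86 TPM in other clone libraries, and 0, 0 and 0.103 TPM in untreated cells. The difference was 2.04 (SE 0.18, adjusted p = 3.72e-07). PCOLCE2 did not differ by a call from untreated cells, and its call against the other clones (1.22, adjusted p = 0.024) was lost when any 1 clone 13 library was left out (adjusted p = 0.053 to 0.12). LOXL2, a related enzyme, had a difference of -0.13 from the other clones (adjusted p = 0.796). DPT (dermatopontin), a matrix protein named after its values were seen, had 7.22, 6.26 and 4.68 TPM in clone 13, at most 2.81 TPM in other clone libraries, and 0, 0.00885 and 0 TPM in untreated cells.

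Among 23 tested matrix proteases and inhibitors, MMP1, MMP2 and MMP3 were called higher than in the other clones (1.21% of all genes) and ADAM19 lower (0.396%). MMP1, interstitial collagenase, which cleaves fibrillar collagen, had 1380.4, 539 and 174 TPM in clone 13, between 21.3 and 580.1 TPM in the other clones, and 5.31, 4.88 and 4.48 TPM in untreated cells. The clone 13 libraries spread widely, and libraries of clones 7 and 12 reached their range. MMP1 exceeded the mean of the other clones by 2.85 (SE 0.51, adjusted p = 0.00113), without a call against clones 7 or 12. MMP3, stromelysin-1, had 13.7, 12.4 and 5.34 TPM in clone 13, between 0.424 and 18.9 TPM in the other clones, and 0.0173, 0.125 and 0.244 TPM in untreated cells. Clone 7 had a higher mean, 17.2 TPM, without a call, and clone 13 was called higher than each of the other 5 clones in MMP3. MMP2, gelatinase A, had 3052, 2639.8 and 1703 TPM in clone 13, between 292 and 2764 TPM in the other clones, and 18.0, 21.0 and 20.0 TPM in untreated cells. Its call against the other clones, at 1.09 (adjusted p = 0.00048), was lost without replicate 1 of clone 13, at 0.92 (adjusted p = 0.0089), and with clone 8 left out of the mean, at 0.73. Genes known as fibroblast markers rose along with the matrix genes: 8 of 8 tested markers were called higher than in untreated cells, where 12.3% of all genes were. The summed level of the 9 markers was 2621 to 3755 TPM in clone 13, 2176 to 7965 TPM in the other clones and 59.9 to 69.3 TPM in untreated cells. That list includes collagen genes. LUM (lumican) had 436, 245 and 232 TPM in clone 13 and 60.6, 49.8 and 49.7 TPM in untreated cells, while THY1 was under 0.488 TPM in all 6 of these libraries. The part of other cells in the matrix values was not tested.

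A second group of genes higher in clone 13 handles oxidants and foreign compounds. Cells answer electrophiles and oxidants chiefly through the transcription factor NRF2, which binds antioxidant response elements and switches on glutathione synthesis, quinone and carbonyl reduction and conjugation. Of 27 tested genes of oxidative stress and ferroptosis, 17 were called higher and 1 lower than in untreated cells (median log2 difference 1.29). Over all genes these shares were 12.3% and 8.34%. Against the mean of the other clones 8 were called higher and 0 lower (median 0.40, against 0.01 over all genes, of which 1.21% were called higher). The excess was over clones 7, 8 and 11, with 14, 16 and 10 genes called higher, where 2.78%, 4.29% and 3.75% of all genes were. Over clones 9, 10 and 12 only 2, 2 and 3 genes were called higher (1.69%, 3.07% and 0.939% of all genes), and the list's median difference from clone 10 was -0.13. The 8 genes were AKR1B10, MGST1, AKR1C3, OSGIN1, GCLM, ALDH3A1, FTL and AKR1C2. Related aldo-keto reductase genes share sequence, so their levels are uncertain.

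AKR1B10, an aldo-keto reductase of aldehydes and retinal, had 75.6, 42.6 and 38.6 TPM in clone 13, between 0.493 and 29.2 TPM in the other clones, and 0.150, 0.406 and 0.421 TPM in untreated cells. No library of another clone reached clone 13, and the difference was 3.13 (SE 0.19, adjusted p = 2.01e-09), with no call against clone 9. GCLM, the modifier subunit of the rate-limiting enzyme of glutathione synthesis, had 35.7, 41.1 and 36.8 TPM in clone 13, between 5.47 and 34.6 TPM in the other clones, and 4.85, 5.30 and 5.04 TPM in untreated cells. Clones 9 and 10 came close, with means of 30.04 and 31.8 TPM, and neither they nor clone 12 differed from clone 13 by a call. GCLM exceeded the mean of the other clones by 1.27 (SE 0.12, adjusted p = 5.64e-07). GCLC, the catalytic subunit of the same enzyme, differed from the other clones by -0.10 (adjusted p = 0.834). OSGIN1, a growth inhibitor induced by oxidative stress, had 23.4, 40.2 and 30.4 TPM in clone 13, between 3.85 and 27.4 TPM in the other clones, and 12.8, 13.2 and 12.1 TPM in untreated cells. One library of clone 10 reached the clone 13 range. Clone 13 alone of the 7 clones was called higher than untreated cells for OSGIN1, and clone 8 was called lower. The difference from the other clones was 1.43 (SE 0.12, adjusted p = 3.24e-07), with calls against clones 7, 8 and 11.

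The promoters of GCLM and OSGIN1 are shown because each holds a motif of a stress-responsive factor, so that a match was fixed by the choice. They were chosen after their values were seen. Each runs from 250 bases before to 50 bases after the start given by RefSeq on GRCh38.p14, and capitals mark the motif. GCLM lies at chr1:93909381-93909680 on the minus strand and OSGIN1 at chr16:83952990-83953289 on the plus strand.
GCLM: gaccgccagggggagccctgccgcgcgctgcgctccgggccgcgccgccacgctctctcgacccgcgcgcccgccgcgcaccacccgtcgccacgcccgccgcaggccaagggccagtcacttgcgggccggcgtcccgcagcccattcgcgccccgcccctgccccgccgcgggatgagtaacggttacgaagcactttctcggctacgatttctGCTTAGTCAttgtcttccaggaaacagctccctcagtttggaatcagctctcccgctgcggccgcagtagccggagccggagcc
OSGIN1: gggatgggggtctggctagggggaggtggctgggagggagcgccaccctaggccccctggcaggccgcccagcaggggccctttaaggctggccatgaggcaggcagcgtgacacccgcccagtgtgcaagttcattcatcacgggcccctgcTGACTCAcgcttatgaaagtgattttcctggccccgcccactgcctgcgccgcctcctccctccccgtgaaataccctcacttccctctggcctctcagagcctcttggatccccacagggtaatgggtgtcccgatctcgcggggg
On both strands, the antioxidant response element core TGACNNNGC and the AP-1 site TGANTCA were searched for. The GCLM window held TGACNNNGC at position -34 from the start, on the opposite strand, and not TGANTCA. The OSGIN1 window held TGANTCA at position -97 and not TGACNNNGC. MGST1, with several listed starts, was searched too and is not shown. Of its windows 1 held TGACNNNGC, at position 31, and the others held neither motif. Of all 27305 genes with a promoter in the table, 16.1% held TGACNNNGC and 9.37% held TGANTCA. A comparison over the 163 genes was void, because only 98 of them had a promoter there. A match describes letters and is not evidence of binding.

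MGST1, a membrane-bound glutathione transferase, had 79.8, 141 and 182 TPM in clone 13, between 0.913 and 247 TPM in the other clones, and 1.06, 1.92 and 1.18 TPM in untreated cells. Clone 10 was higher, with a mean of 194 TPM, and clone 7 was near the untreated level with 1.62 TPM. MGST1 exceeded the mean of the others by 2.04 (SE 0.26, adjusted p = 2.83e-05), and by 1.32 with clone 7 left out. AKR1C3, a reductase of steroids and prostaglandins, had 54.0, 31.4 and 21.7 TPM in clone 13, between 1.91 and 52.3 TPM in the other clones, and 0.166, 0.176 and 0.0917 TPM in untreated cells. Libraries of clones 10 and 12 lay within the clone 13 range of AKR1C3, and the call against the other clones (1.86, adjusted p = 0.0059) was lost without replicate 1 of clone 13 (1.52, adjusted p = 0.063). The calls of ALDH3A1 at 1.09 and AKR1C2 at 1.03 were also lost without that replicate, at 0.91 and 0.82. ALDH3A1 fell under the fold minimum with clone 7 or clone 8 left out of the mean, at 0.97 each. AKR1C2 did so without replicate 2 of clone 13, at 0.99, and with clone 8 or clone 10 left out, at 0.99 and 0.96. Leaving out replicate 1 of clone 10 or replicate 3 of clone 11 also put AKR1C2 at 0.99. FTL, the ferritin light chain that stores iron, averaged 11795 ± 660.4 TPM in clone 13, clone means of up to 10540 TPM in the others and 2927 ± 258 TPM in untreated cells (SD, n = 3 each for clone 13 and untreated cells). Its difference of 1.05 (adjusted p = 0.00196) fell under the fold minimum when clone 8 or clone 11 was left out, at 0.85 and 0.91. Other well-known genes of this response were shared with the other clones. NQO1, a quinone reductase, averaged 692 ± 24.7 TPM in clone 13, up to 895 TPM in clone 10, and 186 ± 2.12 TPM in untreated cells (SD, n = 3 each for clone 13 and untreated cells), a difference of 0.32 from the other clones (adjusted p = 0.195). TXNRD1, thioredoxin reductase, and HMOX1, heme oxygenase, differed from the other clones by 0.52 (adjusted p = 0.128) and 0.36 (adjusted p = 0.338).

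UDP-glucuronosyltransferases of the UGT1A locus attach glucuronic acid to hormones, bilirubin and drugs. Their transcripts share most exons, so the division of reads among them is uncertain. UGT1A10 had 24.3, 25.7 and 24.1 TPM in clone 13, between 0.0252 and 6.14 TPM in the other clones, and 0, 0.0254 and 0.0124 TPM in untreated cells. The 3 clone 13 libraries were close to each other and exceeded every other library, by 3.60 over the mean of the other clones (SE 0.11, adjusted p = 8.12e-14). UGT1A8, named after its values were seen, had 42.1, 48.6 and 73.9 TPM in clone 13, between 0.233 and 62.1 TPM in the other clones, and 0.401, 0.230 and 0.321 TPM in untreated cells. Clones 10 and 12 were also high in UGT1A8, at means of 45.5 and 39.3 TPM. Also named after their values were seen, the epoxide hydrolase EPHX1 differed from the other clones by 1.17 (adjusted p = 7.18e-06) and the glutathione transferase GSTM3 by 1.50 (adjusted p = 4.53e-05).

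**Figure D2:**
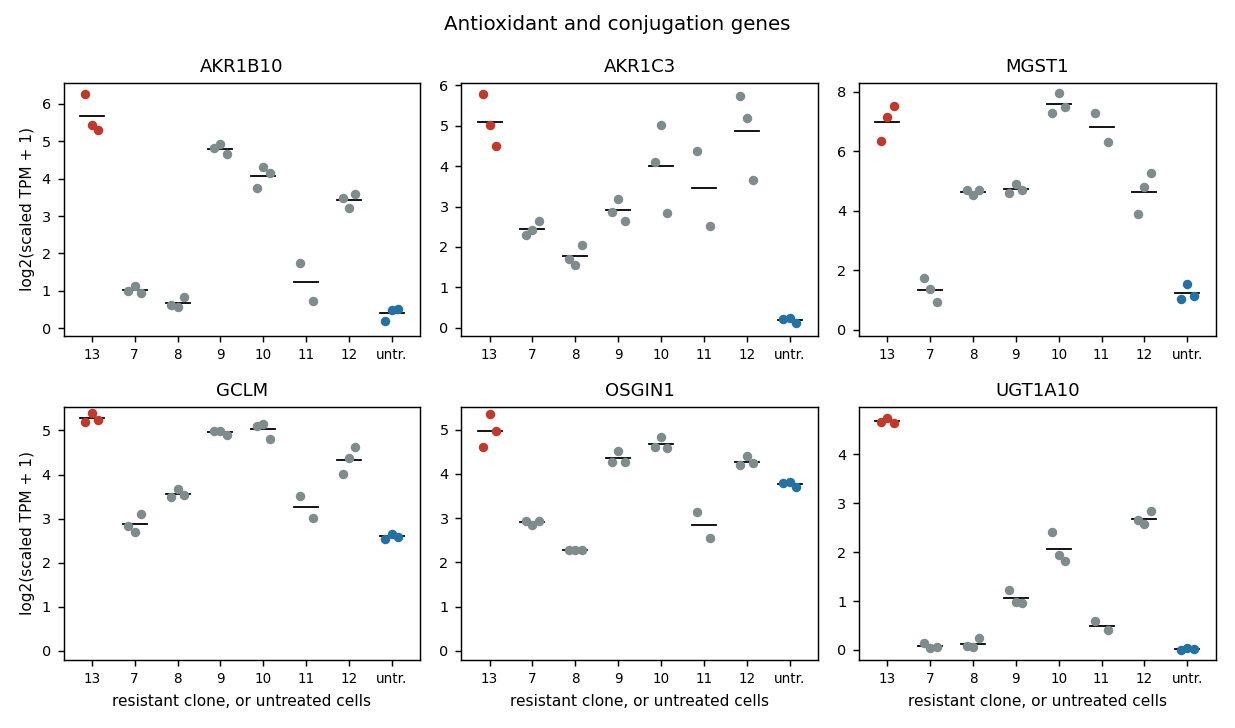
Levels of 6 antioxidant and conjugation genes in every library as log2(scaled TPM + 1), with clone 13 at the left (red), clones 7 to 12 (grey) and untreated cells at the right (blue). Points are libraries and bars are group means. AKR1B10, GCLM and UGT1A10 are highest in clone 13 with no overlap, and clones 9, 10 and 12 come next for AKR1B10, GCLM, OSGIN1 and UGT1A10.

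TDO2, KYNU and QPRT, 3 enzymes of tryptophan breakdown, were chosen after their values were seen and stand for no tested pathway. TDO2, which opens the ring of tryptophan, had 440.3, 182 and 144 TPM in clone 13, between 21.2 and 139 TPM in the other clones, and 2.45, 3.03 and 2.52 TPM in untreated cells. Clone 12 came nearest, averaging 124 TPM with no call against clone 13, and the difference from the other clones was 2.21 (SE 0.20, adjusted p = 5.75e-07). KYNU, kynureninase, a later enzyme of the same route, had 23.7, 23.6 and 23.3 TPM in clone 13, between 0.352 and 18.3 TPM in the other clones, and 0.0457, 0.0531 and 0.0817 TPM in untreated cells. The groups did not overlap, and the difference was 2.19 (SE 0.14, adjusted p = 6.26e-09). QPRT, which leads from this route to NAD, averaged 43.8 ± 3.47 TPM in clone 13, 43.9 TPM in clone 12 and 13.4 ± 0.0841 TPM in untreated cells (SD, n = 3 each for clone 13 and untreated cells). Its call against the other clones, at 1.10, rested on the low level in clone 8 and was 0.51 without that clone.

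Of 24 tested cytokines and chemokines, 15 were called higher and 1 lower than in untreated cells (12.3% and 8.34% of all genes). Against the other clones 4 were called higher and 0 lower (median 0.30, against 0.01 over all genes, of which 1.21% were called higher), and against clones 10 to 12 there were 7 higher and 0 lower, where 1.29% of all genes were higher. Besides CCL8 these were IL6, a cytokine of the acute phase, and the neutrophil chemokines CXCL2 and CXCL3. IL6 had 102.6, 460.2 and 261 TPM in clone 13, between 40.7 and 272 TPM in the other clones, and 0.358, 0.783 and 0.427 TPM in untreated cells. Replicate 2 lay above all other libraries, and replicate 1 lay below 11 of the 17. The difference of 1.07 (SE 0.25, adjusted p = 0.00934) was 0.58 without replicate 2 (adjusted p = 0.17), 0.99 without replicate 3 (adjusted p = 0.063) and 1.66 without replicate 1. CXCL2 and CXCL3, at 1.12 (adjusted p = 0.0323) and 1.11 (adjusted p = 0.025), likewise lost their calls without replicate 2, at 0.47 and 0.68. VCAM1, an adhesion molecule for leukocytes, averaged 491 ± 46.8 TPM in clone 13, clone means of 9.99 to 918 TPM in the others and 0.395 ± 0.0918 TPM in untreated cells (SD, n = 3 each for clone 13 and untreated cells). Its call against the mean, at 1.60, came from clones 7, 8 and 11, and was lost without clone 11, at 0.80.

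Several receptors, enzymes and regulators were among the genes furthest above the other clones. IGFL3, an insulin-like growth factor family protein, had 74.3, 22.5 and 20.0 TPM in clone 13, at most 17.2 TPM in other clone libraries, and 0.0346, 0.0304 and 0.0577 TPM in untreated cells. The difference was 3.30 (SE 0.27, adjusted p = 1.31e-07), with no call against clone 9. FCAR, the Fc receptor for IgA, had 12.0, 42.6 and 28.3 TPM in clone 13, and its clone means were 21.5 and 22.6 TPM in clones 10 and 12, under 1.24 TPM in the other 4 clones, and 0.517 TPM in untreated cells. CPE (carboxypeptidase E), which trims peptide hormones, had 16.4, 17.3 and 15.1 TPM in clone 13, at most 15.0 TPM in other clone libraries, and 0.575, 0.541 and 0.404 TPM in untreated cells. The difference was 2.69 (SE 0.24, adjusted p = 3.49e-07), with no call against clone 11. LRRC32 (GARP), a surface protein that holds latent TGF-beta, had 135, 92.2 and 107 TPM in clone 13, between 2.56 and 45.7 TPM in the other clones, and 0.263, 0.230 and 0.109 TPM in untreated cells. SMYD3, a lysine methyltransferase, had 181, 390.1 and 239 TPM in clone 13, between 26.9 and 174 TPM in the other clones, and 18.6, 16.8 and 18.5 TPM in untreated cells. LRRC32 and SMYD3 were named after their values were seen, and in both the groups did not overlap and clone 12 was the one clone without a call.

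Smooth muscle and contractile genes were the clearest group that clone 13 had at lower levels than the mean of the other clones. They encode actins of the contractile apparatus, their partners and the factor MYOCD (myocardin), which switches on smooth muscle genes. Of 19 tested genes of this list, 10 were called higher and 1 lower than in untreated cells (median 1.06), where 12.3% and 8.34% of all genes were. Against the other clones 0 were called higher and 8 lower (median -0.71, against 0.01 over all genes, of which 0.396% were called lower): ACTG2, MYOCD, ACTA2, LMOD1, MYLK, TAGLN, CNN1 and SYNPO2. The difference was with clones 7, 8 and 11. The list had 8 members lower than in clone 7, where 1.77% of all genes were lower, 10 lower than in clone 8 (2.34%) and 14 lower than in clone 11 (2.78%). It had 1 member lower than in clone 9 (1.46%) and 0 lower than in clones 10 (1.43%) and 12 (0.581%), and 2 were higher than in clone 10 (3.07%).

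ACTG2, smooth muscle gamma-actin, had 5.03, 7.37 and 12.9 TPM in clone 13, between 9.34 and 1706 TPM in the other clones, and 3.03, 3.75 and 3.04 TPM in untreated cells. The clone means of the others split into 16.6 to 21.4 TPM in clones 9, 10 and 12 and 190 to 1678 TPM in clones 7, 8 and 11. The difference was -3.70 (SE 0.28, adjusted p = 7.01e-08). ACTA2, smooth muscle alpha-actin, had 137, 59.2 and 45.6 TPM in clone 13, between 9.22 and 4464 TPM in the other clones, and 11.4, 12.7 and 10.6 TPM in untreated cells. ACTA2 was thus higher than in untreated cells (2.54, adjusted p = 0.00107) and lower than the mean of the other clones (-2.60, SE 0.44, adjusted p = 0.00062). MYOCD had 0.253, 0.459 and 0.526 TPM in clone 13, between 0.0393 and 98.8 TPM in the other clones, and 0.0226, 0.167 and 0.105 TPM in untreated cells. The difference from the other clones was -2.68 (SE 0.24, adjusted p = 3.67e-07), and that from untreated cells 0.36 (adjusted p = 0.361). MYLK, myosin light chain kinase, had 55.6, 74.0 and 67.9 TPM in clone 13, between 47.5 and 2470.2 TPM in the other clones, and 1.95, 2.59 and 2.59 TPM in untreated cells. The difference was -1.89 (SE 0.18, adjusted p = 6.53e-07). Without clone 11 in the mean, TAGLN (-0.83), CNN1 (-0.60) and SYNPO2 (-0.60) lost their calls and LMOD1 was at -1.39 in place of -2.12.

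**Figure D3:**
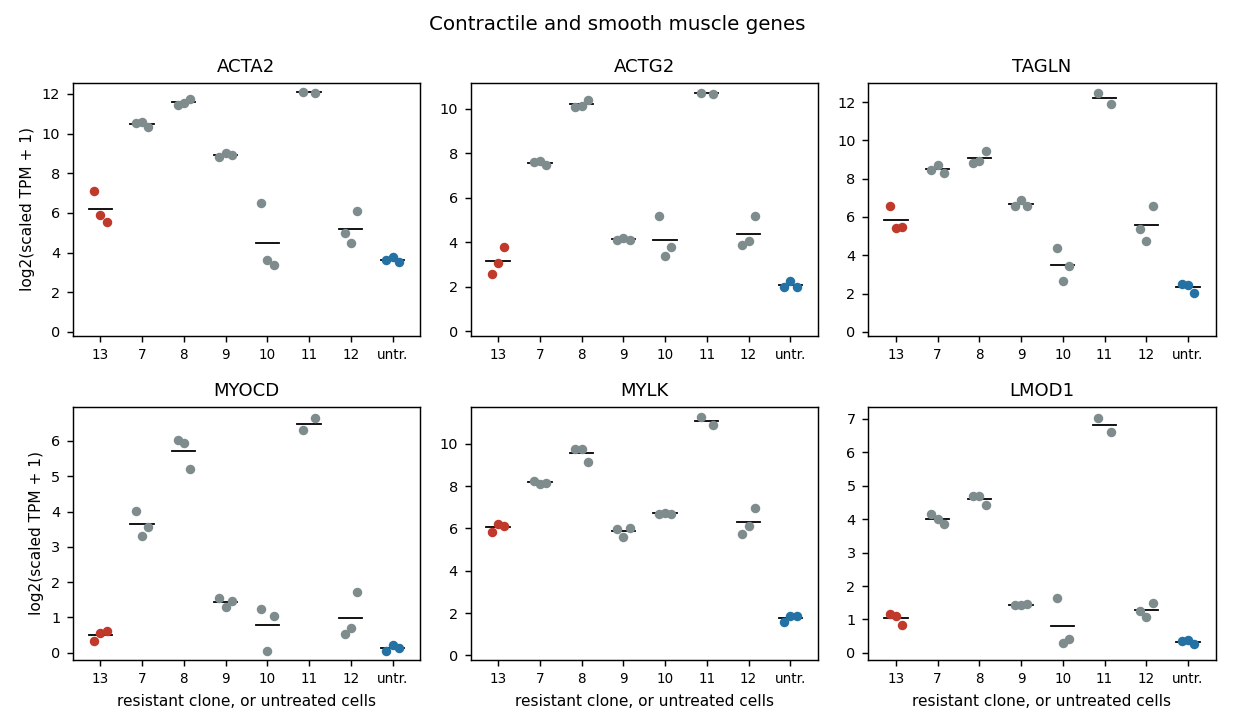
Levels of 6 contractile and smooth muscle genes in every library as log2(scaled TPM + 1), with clone 13 at the left (red), clones 7 to 12 (grey) and untreated cells at the right (blue). Points are libraries and bars are group means. Clones 7, 8 and 11 stand high in every panel, and clone 13 lies with clones 10 and 12 in most panels.

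Genes of the TGF-beta and BMP pathway and of the Notch pathway included several that were lower in clone 13. BMP2, BMP4 and GDF6 are ligands of BMP receptors, INHBA encodes the activin A subunit, and ID4 is a target and inhibitor of helix-loop-helix factors. These were the 5 of 27 tested genes called lower than in the other clones, with 0 called higher (median -0.16, against 0.01 over all genes, of which 0.396% were called lower). Against clone 9 there were 9 lower and 0 higher (1.46% and 1.69% of all genes). Against clones 10 to 12 as a mean there were 1 lower and 1 higher (0.402% and 1.29%). Against clone 10 singly there were 1 lower and 4 higher (1.43% and 3.07%), and against clone 12 singly 0 lower and 3 higher (0.581% and 0.939%). BMP2 had 0.198, 0.284 and 0.502 TPM in clone 13, between 0.516 and 15.3 TPM in the other clones, and 0.00919, 0.0124 and 0.0116 TPM in untreated cells. Every library of another clone lay above clone 13, and the difference was -1.40 (SE 0.17, adjusted p = 1.68e-05). INHBA had 21.2, 19.0 and 23.6 TPM in clone 13, between 8.99 and 167 TPM in the other clones, and 0.199, 0.250 and 0.219 TPM in untreated cells. Its difference of -1.08 (adjusted p = 0.00226) was at -0.91 to -0.80 with clone 8, 9 or 11 left out. BMP4, at -1.36, was high in clones 7, 8 and 9 only, clone 13 lay near clones 10 to 12, and the difference was -0.95 without clone 8. The calls of GDF6 at -1.27 (adjusted p = 0.0249) and ID4 at -1.25 (adjusted p = 0.029) were lost without replicate 2 of clone 13 (adjusted p = 0.15 and 0.16). Both were also lost with a pseudocount of 0.1 and with no filter. GDF6 lost its call without replicate 1 too, and with clone 7 or 9 left out. ID4 lost its call without replicate 3 too (adjusted p = 0.25), and with clone 8, 9 or 11 left out. ID4 was also called lower than in untreated cells, a call lost in 20 of 30 alternatives. Of 14 tested Notch genes, the receptor NOTCH3 (-1.43, adjusted p = 0.00211) and the target HEY1 (-1.33, adjusted p = 0.00733) were called lower, where 0.396% of all genes were. Without clone 11 NOTCH3 was at -0.97, and without clone 8 HEY1 was at -0.85. HEY1 had 2.67, 2.55 and 2.40 TPM in clone 13, between 0.123 and 47.6 TPM in the other clones, and 54.1, 52.8 and 53.5 TPM in untreated cells.

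The 13 genes lower than both untreated cells and the other clones were few and of mixed function. ROBO2, an axon guidance receptor, had 0.266, 0.219 and 0.216 TPM in clone 13, between 0.177 and 7.43 TPM in the other clones, and 37.9, 47.4 and 49.7 TPM in untreated cells. It fell in every clone and further in clone 13, by -1.37 from the mean of the others (SE 0.12, adjusted p = 4.28e-07), although clones 10 and 12 were not called different. PCDH7, a protocadherin, and ANKS1B, a synaptic scaffold protein, differed by -1.23 (adjusted p = 0.00031) and -1.60 (adjusted p = 0.000784). AKAP12, an anchor of protein kinase A, differed by -1.10 (adjusted p = 0.000256), and without clone 11 PCDH7 and AKAP12 were at -0.93 and -0.88. TNFRSF21, death receptor 6, had 1.93, 1.20 and 1.17 TPM in clone 13, between 1.02 and 11.6 TPM in the other clones, and 8.33, 8.83 and 9.03 TPM in untreated cells. The difference was -1.24 (SE 0.24, adjusted p = 0.00238), with calls against every clone but clone 7. HSPA1A, an inducible heat shock protein whose copy HSPA1B is nearly identical, had 26.2, 9.10 and 22.5 TPM in clone 13, between 21.9 and 76.9 TPM in the other clones, and 41.4, 37.7 and 38.8 TPM in untreated cells. HSPA1A was among the 2 genes (0.0128%) called lower in clone 13 and in no other clone against untreated cells. The HSPA1A difference of -1.37 from the other clones was -0.93 without replicate 2 of clone 13, and its difference of -1.11 from untreated cells was -0.67.

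Some changes found in most other clones were weak or missing in clone 13. In 9 genes (0.0575%) a rise called in at least 5 of the other clones was not called in clone 13, which also lay below their mean. SLC24A3, a sodium, potassium and calcium exchanger, had 0.107, 0.182 and 0.366 TPM in clone 13, between 0.0205 and 44.2 TPM in the other clones, and 0.0168, 0.0452 and 0.0318 TPM in untreated cells. Clone 13 lay near the untreated level and differed from the other clones by -2.55 (SE 0.15, adjusted p = 1.51e-09), with calls against every clone but clone 10. MRVI1, which takes part in smooth muscle relaxation, differed by -1.50 (adjusted p = 3.49e-07), LBH, a transcription cofactor, by -1.15 (adjusted p = 0.00163), and ADAM19, a membrane metalloprotease, by -1.27 (adjusted p = 6.54e-05). Without clone 11 LBH and ADAM19 were at -0.74 and -0.82, and without replicate 1 of clone 13 LBH was at -0.84. BMP2, GDF6 and SYNPO2 belong to these 9 genes too, as does VTN (vitronectin) at -1.09, whose call was lost when any 1 clone 13 library was left out (adjusted p = 0.054 to 0.061).

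Conversely, 5 genes (0.0319%) fell in at least 5 other clones and not by a call in clone 13. B4GALNT4, a glycosyltransferase, had 8.17, 7.92 and 6.48 TPM in clone 13, at most 1.50 TPM in the other clones, and 5.95, 5.04 and 4.33 TPM in untreated cells. It was called lower than in untreated cells in all 6 other clones and higher in clone 13 than in each of them, by 2.44 over their mean (SE 0.16, adjusted p = 6.26e-09). Its difference from untreated cells was 0.48 (SE 0.20, adjusted p = 0.0577). NCAM1, a neural cell adhesion molecule, had 14.5, 16.2 and 6.47 TPM in clone 13, between 2.37 and 7.61 TPM in the other clones, and 16.7, 17.4 and 19.5 TPM in untreated cells. Replicate 3 of clone 13 lay within the range of the other clones, and the difference from them was 1.32 (SE 0.16, adjusted p = 2.02e-05). EEF1A2, SPRR2D and TPBGL were the other members, at 1.20, 1.30 and 1.04 over the other clones, and each of these calls was lost without at least 1 clone 13 library. PRKG2, a cGMP-dependent kinase named after its values were seen, had 2.89, 2.45 and 0.818 TPM in clone 13, at most 0.704 TPM in the other clones, and 20.1, 27.4 and 29.4 TPM in untreated cells. It was called lower than in untreated cells (-3.18) and higher than in each other clone (1.26 over their mean, adjusted p = 0.000172).

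Several lists had few or no genes called against the mean of the other 6 clones. The melanocyte list had 0 of 21 genes called against that mean, where 1.61% of all genes were called, with 0.17 as the median difference. Taken singly, 5 were higher than in clone 11 (3.75% of all genes), and 4 higher and 1 lower than in clone 8 (4.29% and 2.34%). Against clone 7, 1 was higher and 3 lower (2.78% and 1.77%), and against the rest at most 1 was called either way. SOX10 had 5.95, 1.60 and 0.921 TPM in clone 13, between 0.191 and 14.2 TPM in the other clones, and 465 to 473 TPM in untreated cells. The MAPK output list had 2 of 17 genes called higher and 8 lower than in untreated cells (12.3% and 8.34% of all genes). Against the mean of the other clones it had 0 called (1.61% of all genes). Taken singly, 6 MAPK genes were higher and 0 lower than in clone 11 (3.75% and 2.78% of all genes). Against each remaining clone 0 were higher (0.939% to 4.29% of all genes). There were 3 lower than in clone 9 (1.46%), 2 lower than in clone 7 (1.77%) and 1 lower than in each of clones 8, 10 and 12 (2.34%, 1.43% and 0.581%). SPRY4, a feedback inhibitor of the pathway, averaged 3.87 ± 0.687 TPM in clone 13 and 40.99 ± 4.68 TPM in untreated cells (SD, n = 3 each), a difference of -0.13 from the other clones (adjusted p = 0.72). Of 36 interferon response genes 33 were called higher than in untreated cells, where 12.3% of all genes were. Against the other clones 1 was called higher (BST2) and 1 lower (MX2), where 1.21% and 0.396% of all genes were. Neither call held throughout: BST2 was at 0.53 with clone 7 left out of the mean (adjusted p = 0.078), and MX2 at -0.59 without replicate 1 of clone 13 (adjusted p = 0.079). Taken singly, 6 interferon genes were higher and 0 lower than in clone 7 (2.78% and 1.77% of all genes). Against clone 8, 1 was higher and 7 lower (4.29% and 2.34%), and against the rest at most 3 were called either way. The receptors AXL and EGFR differed from the other clones by -0.06 (adjusted p = 0.936) and 0.05 (adjusted p = 0.926). Of 35 cell cycle genes 6 were called higher than in untreated cells, where 12.3% of all genes were, and 0 called against the other clones, and MKI67, a marker of cycling cells, differed from them by 0.30 (adjusted p = 0.428). These p-values do not show that the levels were equal.

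Clones 10, 11 and 12 share the drugs of clone 13, and against their mean 202 genes were called higher (1.29%) and 63 lower (0.402%) in clone 13, 1.69% in all. Of the 190 and 62 genes called against all 6 clones, 129 and 38 were called in the same direction in this comparison. COL1A2 differed by 4.45, SOST by 3.68, NTF3 by 3.17 and UGT1A10 by 2.94 from clones in the same drugs. MGST1 (0.65, adjusted p = 0.16), AKR1C3 (1.00, adjusted p = 0.17), ACTA2 (-1.07, adjusted p = 0.18) and BMP4 (-0.01, adjusted p = 0.98) were not called there. By number of genes, clone 13 differed least from clone 12, with 147 higher (0.939%) and 91 lower (0.581%), and most from clone 8, with 672 higher (4.29%) and 366 lower (2.34%). Clone 11 came next, with 587 higher (3.75%) and 435 lower (2.78%). Against clone 7 there were 435 higher (2.78%) and 277 lower (1.77%), against clone 9 there were 265 (1.69%) and 228 (1.46%), and against clone 10 there were 481 (3.07%) and 224 (1.43%).

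Genes of chromosome 6 were lower as a whole in clone 13. The observation was made after the values were seen and is given without a test. RefSeq gave a chromosome for 13114 of the 15657 tested genes by symbol, and 462 genes of chromosome 6 had a mean of at least 4 TPM over the groups. Their median log2 difference from the mean of the other clones was -0.27, and 89.0% of them lay below 0, against 46.3% of such genes on the other chromosomes. Relative to untreated cells and to the median of all genes in the same library, the chromosome 6 median was -0.30, -0.23 and -0.12 in clone 13 replicates 1, 2 and 3, and between 0.03 and 0.10 in the 17 libraries of the other clones. The 3 clone 13 libraries were thus the only ones of the resistant clones below the untreated libraries, which lay between -0.006 and 0.003. Along the chromosome the running median of 41 neighboring genes stayed between -0.37 and -0.14, so the shift was not limited to 1 end. For the leave-out values the median of all tested genes was subtracted and the 4 TPM minimum was taken over libraries, unlike for the -0.27. On that measure the difference from the other clones was -0.34 without replicate 3 and -0.25 without replicate 2. On 4 further chromosomes clone 13 also kept 1 direction against all 6 clones, with a smallest difference of at most 0.11. Of the 462 genes, 6 were called lower than in the other clones and 0 higher, where 0.396% and 1.21% of all tested genes were. The 6 were ID4, HSPA1A, HSPA1B, TNFRSF21, PLN and GJA1.

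**Figure D4:**
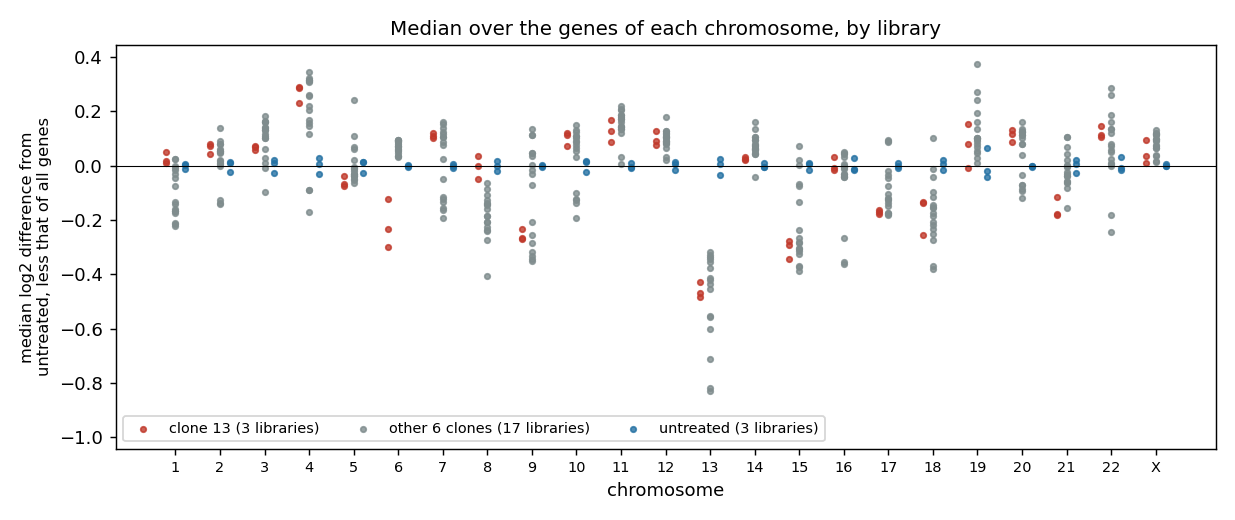
Median log2 difference from untreated cells over the genes of each chromosome, less the median of all genes, for each library of clone 13 (red, left), the other clones (grey, middle) and untreated cells (blue, right). Chromosome 6 is the one where all clone 13 libraries lie below 0 and all libraries of the other clones above 0, at -0.30 to -0.12 against 0.03 to 0.10.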

How the data were processed

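Libraries were made from poly(A) RNA and read from both ends, and sample order was randomized before extraction, per the labels' protocols. The authors deposited 1 table of 35438 genes and 23 libraries. Its name speaks of counts, but every deposited column summed to 1000000, so the values were read as TPM. Per the submitters' processing notes, kallisto and hg19 were used; no source used here gives versions, annotation or filters. Since TPM hides depth, counting intervals are left out.

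TPM was scaled by a trimmed mean of log ratios (30% of ratios and 5% of levels trimmed) over 10822 genes with at least 1 TPM in all libraries, with factors of 0.871 to 1.34. The median difference of all genes between clone 13 and untreated cells was -0.0039 after scaling and 0.15 on the values as deposited. The 15657 genes that reached 1 TPM in 2 or more libraries were tested. limma 3.58.1 (R 4.3.3; lmFit, eBayes with trend) was fitted to log2(scaled TPM + 1) in 8 groups; this scale, computed here from the deposited TPM, understates the change of low genes. Contrasts were clone 13 minus untreated cells, minus the unweighted mean of the other 6 clones, minus that of clones 10, 11 and 12, and minus each clone. Scripts were tested on simulated data.

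The choice of clone 13, the 45 gene lists and the rule for named genes were made with earlier results of these data known. The rule names genes with at least 4 TPM in the higher group, by size of the difference from the other clones: up to 14 called against untreated cells and each clone, 12 each way called against untreated cells and the mean, 8 each way called in no other clone, 8 each way lacked by clone 13, up to 5 per list and a fixed panel. Genes outside it are said to be so, apart from further list members. Some results are not reported here. Alternatives were other scalings, a pseudocount of 0.1, other filters, a replicate block, and leaving out each library or each clone.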

Additional observations from a re-analysis of the deposited data

Results flagged for a closer look

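CYTL1, a secreted cytokine-like protein, was called higher in clone 13 than in untreated cells and lower than untreated cells in 3 other clones (7, 8 and 11). It had 179, 257 and 338 TPM in clone 13, between 14.1 and 277 TPM in the 17 libraries of the other clones, and 97.1, 87.9 and 83.6 TPM in untreated cells. The log2 difference of clone 13 from the mean of the other clones was 1.94 (SE 0.18, limma adjusted p = 5.47e-07). Clones 10 and 12 were called higher than untreated cells, as clone 13 was, with means of 239.7 and 221 TPM.

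SLCO2B1, an uptake transporter, showed the same opposition to clones 7, 8 and 11, with a difference of 2.17 from the mean of the other clones (limma adjusted p = 6.54e-05). Both genes were called higher in clone 13 than in each of those 3 clones. Groups of 2 or 3 libraries were too small for a check for single outlying libraries. Replicate 1 of clone 10, which had the fewest genes above 0, was kept.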

How the results depend on the processing

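No called difference of a named gene changed direction under any alternative, and 289 of 364 calls of named genes were lost under none. With a pseudocount of 0.1 the counts against the mean of the other clones were 340 higher and 109 lower, against clones 10 to 12 they were 343 and 115, genes higher or lower than both untreated cells and the other clones numbered 275 and 20, and lacked falls numbered 11; low genes are then less shrunk, and SOST stood 8.60 above untreated cells. Leaving out 1 library gave 1901 to 1949 higher and 1271 to 1325 lower against untreated cells, 136 to 234 and 61 to 69 against the other clones, 167 to 237 and 51 to 80 against clones 10 to 12, 17 to 34 and 0 to 1 against each clone, 117 to 198 and 12 to 16 against both, and 6 to 10 lacked rises and 3 to 9 lacked falls. The lowest count of higher genes against the other clones came without replicate 2 of clone 13 and the highest without replicate 1. With a clone left out of the mean all 5 remaining clones must share a change, a stricter rule, and lacked rises numbered 2 (without clone 7, 8, 9 or 11), 4 (without 10) and 3 (without 12). Lacked falls numbered 3 without clone 10, and genes lower than both numbered 8 without clone 8. For a check of pairing, each library's deviations from its own group mean were correlated over the more highly expressed genes. In same-numbered libraries these deviations correlated at -0.20 to 0.33 between clone 13 and untreated cells. Between clones 13 and 12 they correlated at 0.27 to 0.55. Over all groups 11 of 20 such pairs exceeded 0.1, and in these deviations 1 of 3 clone 13 libraries correlated best with its own number. The labels give the numbers no shared batch, so they were not taken as pairs. With a replicate block 199 genes were higher and 66 lower than in the other clones, and 162 of the 163 genes and all 24 genes kept their calls. TPM without depth gives no limit for values at 0.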

Other observations

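Among ion channels, 3 of 27 tested genes were called higher in clone 13 than in the other clones and 0 lower, where 1.21% of all genes were called higher. KCNMA1, a calcium-activated potassium channel, had 19.0, 30.2 and 31.6 TPM in clone 13, between 0.970 and 72.4 TPM in the other clones, and 0.0185, 0.0547 and 0.00788 TPM in untreated cells. Only clone 8 exceeded clone 13, with a mean of 48.1 TPM, and the difference from the other clones was 1.75 (SE 0.23, limma adjusted p = 5.73e-05). KCNJ15, an inward rectifier potassium channel, had 9.98, 7.37 and 2.95 TPM in clone 13, at most 3.98 TPM in other clone libraries, and 0.202, 0.174 and 0.188 TPM in untreated cells. Its difference was 1.90 (SE 0.19, limma adjusted p = 1.3e-06).

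DGAT2, an enzyme of triglyceride synthesis, had 10.0, 14.1 and 10.7 TPM in clone 13, between 1.17 and 7.83 TPM in the other clones, and 0.333, 0.347 and 0.429 TPM in untreated cells. The groups did not overlap, and the difference from the other clones was 1.48 (SE 0.12, limma adjusted p = 1.91e-07), with no call against clone 8. CRYAB, a small heat shock protein chosen after its values were seen, had 496, 94.3 and 56.1 TPM in clone 13, between 3.37 and 267 TPM in the other clones, and 1.81, 1.42 and 1.46 TPM in untreated cells. Its difference of 2.33 from the other clones (limma adjusted p = 0.00297) was 1.41 without replicate 1 of clone 13.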
